A study of Bos grunniens with 18 samples.

Results

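Heat shock chaperones are the proteins that hold, fold and release other proteins when heat, oxidation or rapid synthesis puts them at risk. The genes described here are a part of that machinery and its regulator HSF1, with transcripts measured in yak blood. They were chosen by name. Of 10 names, HSPA5, HSPA8, HSPA13, HSPH1, HSP90AA1, HSPD1, HSPE1, DNAJB1, BAG3 and HSF1, the deposited table of 20607 genes lists 7 as a gene name, and these 7 are the members. HSP90AA1 and HSPD1 are present only under an identifier whose description names them, and they are given beside the members, with that said. DNAJB1 was found neither by name nor by description.

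Whole blood of yak cows (Bos grunniens) aged 4 to 8 years was sequenced at 3 reproductive stages, labelled Y-A for anestrus, Y-E for estrus and Y-P for pregnancy, with 6 libraries at each. The study followed 6 cows through the stages, so libraries of different stages are not independent of each other. Estrus was synchronised with a progesterone pessary, cloprostenol and GnRH before insemination, so Y-E and Y-P followed a hormone treatment that is not described for Y-A, and stage, treatment and order of sampling cannot be told apart. Blood went into EDTA tubes with TRIzol LS and liquid nitrogen, and polyadenylated RNA was sequenced.

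The HSP70 proteins work in a cycle driven by ATP. A J-domain protein delivers the client and starts ATP hydrolysis, the HSP70 closes on the client, and a nucleotide exchange factor opens it again, after which HSP90 or a chaperonin may finish the folding. HSF1 is the transcription factor that turns many of these genes on under stress; at rest it is held inactive by the chaperones themselves. In cattle, blood leukocytes are a common source for following these transcripts under heat load.

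Library totals ran from 30247267 to 48401076 counts, so each member was read from at least 208 counts in every library. Levels of 1 gene across libraries are given as CPM (counts scaled to the library size with TMM factors), and levels of different genes are compared as FPKM, which is scaled by length. The share of counts from hemoglobin genes was 3.10% to 16.7% in Y-A and 0.0272% to 0.376% in Y-P. In Y-E it was 0.0899% to 0.713% in 5 libraries and 8.36% in replicate 6, which therefore stands apart from its stage. Replicate 6 also had the highest hemoglobin share of its stage in Y-A and in Y-P. Results are given over 18 libraries, with values over 17, without Y-E replicate 6, where a call or a value rested on that library. In RNA from whole blood, fewer cells of a type and less RNA per cell cannot be told apart.

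HSPA8, the constitutive cytosolic HSP70, was the highest at 605 ± 109 FPKM (SD over 18 libraries), above 99.5% of all listed genes. HSPA5, the HSP70 of the endoplasmic reticulum that is also known as BiP, stood at 75.4 ± 13.1 FPKM. HSPE1, the small lid of the mitochondrial chaperonin, followed at 42.6 ± 17.4 FPKM. The remaining members were HSF1 at 25.2 ± 5.36 FPKM, HSPA13, a microsomal HSP70 relative, at 21.1 ± 5.83 FPKM, HSPH1, an HSP110 that serves as nucleotide exchange factor for HSP70, at 15.8 ± 3.33 FPKM, and BAG3, an exchange factor that also directs clients to autophagy, at 9.93 ± 3.10 FPKM. Of the genes found by description, HSP90AA1, the inducible cytosolic HSP90, had 316 ± 68.1 FPKM and HSPD1, the HSP60 subunit of the mitochondrial chaperonin, had 54.9 ± 11.3 FPKM.

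The order of these levels was stable at the top and loose below. HSPA8 exceeded HSP90AA1 in 18 of 18 libraries, by 1.28 to 2.89 times in FPKM. HSP90AA1 exceeded HSPA5 in 18 of 18 libraries, and the ranges of that pair were the only neighbouring ranges that did not overlap. HSF1 and HSPA13 were the least separated neighbours, with HSF1 higher in 13 of 18 libraries. Each of the other neighbours kept its order in 15 to 17 of 18 libraries while their ranges overlapped.

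Between libraries most members varied little. The SD of log2 CPM over 18 libraries was 0.62 for HSPE1 and 0.50 for BAG3. For the other members it lay between 0.20 (HSPA5) and 0.31 (HSF1), against a median of 0.41 over all tested genes. That median was not matched for level, and even BAG3, the lowest member, lay above 68.6% of all listed genes in FPKM. The part of level in the low SD was not tested. The highest library exceeded the lowest by 4.46 times in CPM for HSPE1, by 3.48 times for BAG3 and by 1.60 times for HSPA5.

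**Figure D1:**
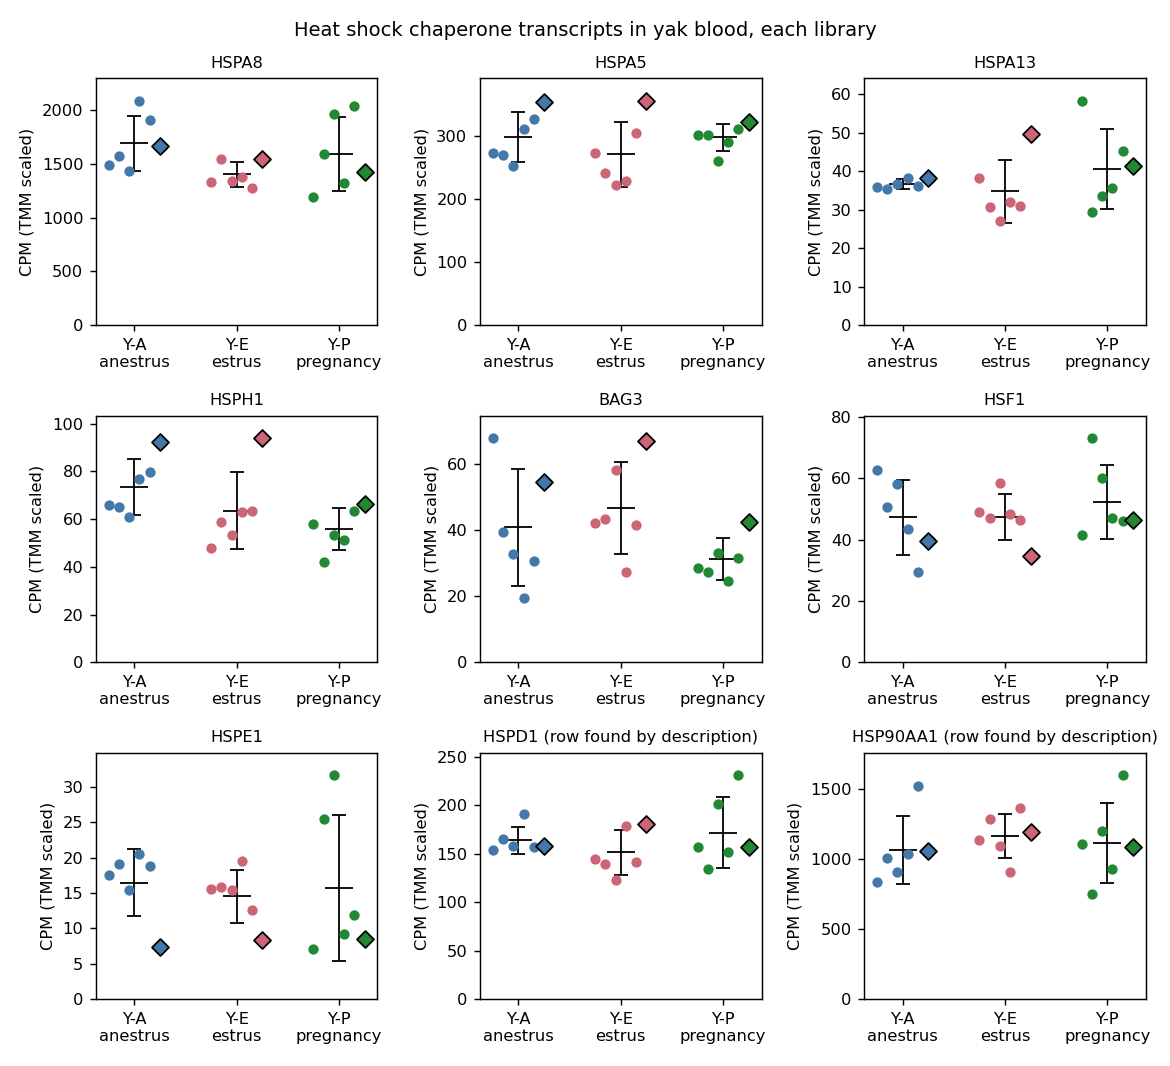
CPM (TMM scaled, linear axes from 0) of the 7 members and of HSPD1 and HSP90AA1 in each of the 18 libraries, by stage; points are libraries, diamonds are replicate 6 of each stage, and horizontal and vertical lines give the mean and SD of 6 libraries. The stages overlap in every panel, and HSPH1 and HSPA5 are highest in replicate 6 at all 3 stages.

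With stage as the only factor, no member passed the test between any pair of stages over 18 libraries. With the replicate number added as a block, HSPH1 passed in Y-P vs. Y-A and BAG3 passed in Y-P vs. Y-E, as described with each gene. In edgeR's quasi-likelihood test with Benjamini-Hochberg adjustment over 14508 genes, 0 of 7 members passed an adjusted p of 0.05 in Y-E vs. Y-A, where 0.0207% of all genes passed. The count was 0 of 7 in Y-P vs. Y-A, against 5.83% of all genes, and 0 of 7 in Y-P vs. Y-E, against 14.4%. At an unadjusted p under 0.05 the member counts were 0, 1 and 1 in the same order, against 6.2%, 22.7% and 29.3% of all genes. DESeq2 on the counts and limma on log2 FPKM also called 0 members in each comparison. A test across the 3 stages together called 0 of 7 members and 11% of all genes. No member had stages whose libraries did not overlap, against 0.303%, 3.56% and 6.03% of all genes. The comparisons share libraries, so each stage enters 2 of them.

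The median log2 fold change over the 7 members was -0.14 in Y-E vs. Y-A, -0.07 in Y-P vs. Y-A and 0.14 in Y-P vs. Y-E, beside -0.01, 0.03 and 0.04 over all tested genes. With scaling by library size alone the last pair of all-gene medians moved to 0.19 and 0.18, so small differences of Y-P from the other stages depend on the scaling. Every interval below is a 95% interval of a log2 fold change from the edgeR fit.

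HSPA8 had 1430 to 2085 CPM in anestrus (median 1616), 1272 to 1546 CPM in estrus (median 1359) and 1195 to 2036 CPM in pregnancy (median 1507). The Y-E libraries covered the lower part of the Y-A range and reached below it, and the Y-P libraries spread across both. The log2 difference of Y-E from Y-A was -0.27 ± 0.14 (SE), with an interval of -0.56 to 0.01 and an adjusted p of 0.830 by edgeR. Y-P differed from Y-A by -0.09 ± 0.14 and from Y-E by 0.18 ± 0.14, with adjusted p of 0.751 and 0.409 by edgeR. The HSPA8 gene (ENSBGRG00000014719) is listed at chromosome 13, 53261385 to 53265933, plus strand, and 2 SNORD14 genes of the table lie inside it on that strand.

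HSPA5 had 252 to 354 CPM in anestrus (median 292), 222 to 355 CPM in estrus (median 257) and 260 to 323 CPM in pregnancy (median 302). All 3 ranges overlapped, and Y-P was the tightest stage. Y-E lay -0.14 ± 0.12 from Y-A on the log2 scale and Y-P lay 0.00 ± 0.12 from Y-A, with an interval of -0.25 to 0.25 for the latter. Without Y-E replicate 6, its highest library at that stage, the log2 difference of Y-E from Y-A was -0.23 (edgeR adjusted p = 0.604). ENSBGRG00000020026, the HSPA5 gene, spans 4483615 to 4489036 on the minus strand of chromosome 9.

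HSPA13 had the narrowest spread of any member in anestrus and a wider one at the other stages. Y-A libraries lay between 35.3 and 38.3 CPM (median 36.3), a coefficient of variation of 3.35%. Y-E libraries ran from 27.2 to 49.8 CPM (median 31.5) and Y-P libraries from 29.4 to 58.3 CPM (median 38.5). The coefficients of variation there were 23.5% and 25.5%, near those of HSPH1 in Y-E (25.4%) and HSF1 in Y-P (22.9%). The highest libraries were Y-E replicate 6, where the next had 38.3 CPM, and Y-P replicate 1, where the next had 45.3 CPM. The difference in spread was not tested. The log2 difference of Y-P from Y-E was 0.22 ± 0.16, and 0.35 ± 0.14 without Y-E replicate 6, where edgeR's unadjusted p was 0.0266 and the adjusted p 0.118. HSPA13 (ENSBGRG00000000025) lies on the minus strand of chromosome 1, from 14404460 to 14414915.

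HSPH1 came closest to a difference between anestrus and pregnancy. It had 60.8 to 92.2 CPM in anestrus (median 71.4), 47.8 to 94.0 CPM in estrus (median 61.1) and 41.9 to 66.3 CPM in pregnancy (median 55.8). Of the Y-P libraries 4 of 6 were under every Y-A library, and the ranges overlapped between 60.8 and 66.3 CPM. The log2 difference of Y-P from Y-A was -0.40 ± 0.15, with an interval of -0.72 to -0.08, an unadjusted p of 0.0181 and an adjusted p of 0.129 by edgeR. With the replicate number as a block, which takes out differences between the cows if a number marks a cow, the log2 difference was -0.39 and the adjusted p 0.0344 by edgeR, and 8.84% of all genes passed in that fit. Over all settings tried the adjusted p ran from 0.0344 to 0.467, the highest with limma on log2(FPKM + 1), where the difference was -0.18. The same block brought the test across 3 stages to an adjusted p of 0.0490 from 0.204 for HSPH1.

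HSPH1 in estrus depended on a single library. Y-E replicate 6 had 94.0 CPM and the next library of the stage 63.5 CPM. The log2 difference of Y-E from Y-A was -0.21 ± 0.15 with it and -0.36 ± 0.13 without it, where the unadjusted p was 0.0154 and the adjusted p 0.394 by edgeR. Y-P differed from Y-E by -0.19 ± 0.15 with that library and by -0.04 ± 0.13 without it. HSPH1 (ENSBGRG00000007830) is listed at chromosome 15, 52477604 to 52505992, minus strand.

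BAG3 was the member with the widest difference between estrus and pregnancy. Its libraries ran from 19.5 to 67.8 CPM in anestrus (median 36.0), from 27.3 to 66.8 CPM in estrus (median 42.8) and from 24.7 to 42.4 CPM in pregnancy (median 29.9). Y-P held the narrowest range, which lay wholly inside that of Y-A and overlapped the lower part of Y-E. The log2 difference of Y-P from Y-E was -0.58 ± 0.25, with an interval of -1.10 to -0.05, an unadjusted p of 0.0336 and an adjusted p of 0.133 by edgeR. With the replicate block it was -0.54 and the adjusted p 0.0449 by edgeR, where 18% of all genes passed. Without Y-E replicate 6 the log2 difference was -0.44 (edgeR adjusted p = 0.271), and with that library left out and the block kept the adjusted p was 0.0850. The adjusted p ran from 0.0449 to 0.314 over the settings tried. BAG3 (ENSBGRG00000021665) spans 43235824 to 43262590 on the plus strand of chromosome 25.

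HSF1, which controls the response, had 29.5 to 62.5 CPM in anestrus (median 47.1), 34.7 to 58.5 CPM in estrus (median 47.6) and 41.4 to 73.1 CPM in pregnancy (median 46.6). The stage medians differed by about 1 CPM while the ranges overlapped. The log2 difference of Y-E from Y-A was -0.00 ± 0.18, with an interval of -0.37 to 0.37, and its sign depended on the processing. Y-P lay 0.14 ± 0.18 above Y-A and 0.15 ± 0.18 above Y-E on the log2 scale, with adjusted p of 0.680 and 0.637 by edgeR. HSF1 (ENSBGRG00000012841) is listed at chromosome 18, 21264261 to 21286762, plus strand.

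HSPE1 varied most of all members. Its coefficient of variation was 28.9% in anestrus, 25.6% in estrus and 65.8% in pregnancy, and the difference in spread was not tested. It had 7.40 to 20.6 CPM in anestrus (median 18.1), 8.41 to 19.4 CPM in estrus (median 15.5) and 7.10 to 31.6 CPM in pregnancy (median 10.6). In Y-A and in Y-E only replicate 6 was under 12 CPM, while in Y-P replicates 1, 4, 5 and 6 had at most 12.0 CPM and replicates 2 and 3 had 25.5 and 31.6. The log2 difference was -0.18 ± 0.34 for Y-E vs. Y-A, -0.07 ± 0.34 for Y-P vs. Y-A and 0.11 ± 0.34 for Y-P vs. Y-E, with an interval of -0.60 to 0.81 for the last. ENSBGRG00000000521, the HSPE1 gene, lies on chromosome 2 from 55661131 to 55662998, minus strand.

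**Figure D2:**
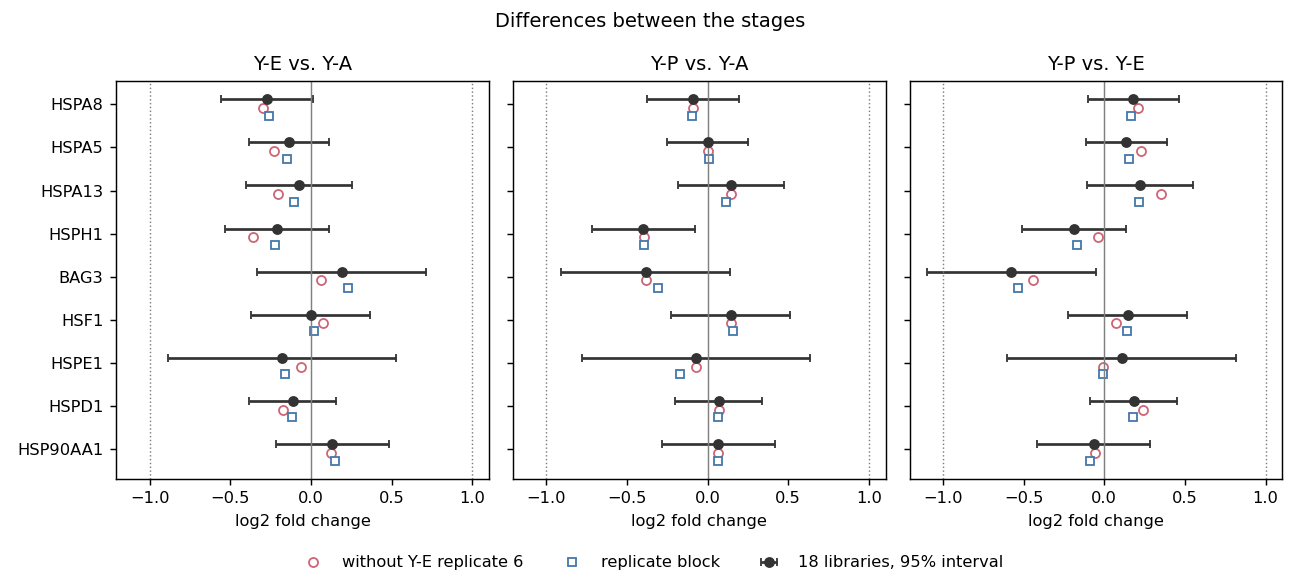
Log2 fold changes of the 7 members and of HSPD1 and HSP90AA1 in the 3 comparisons; black points with bars are the edgeR estimates over 18 libraries with 95% intervals, open circles leave out Y-E replicate 6, open squares add the replicate block, and dotted lines mark 2-fold. Only HSPH1 in Y-P vs. Y-A and BAG3 in Y-P vs. Y-E have intervals that leave out 0, at an adjusted p of 0.129 and 0.133 by edgeR.

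HSPD1 forms the barrel that HSPE1 closes, and their genes are neighbours. The HSPD1 gene found by description (ENSBGRG00000000539) lies on chromosome 2 from 55663553 to 55673581 on the plus strand, with 554 bases between it and HSPE1 on the other strand. HSPD1 had 154 to 191 CPM in anestrus (median 158), 123 to 181 CPM in estrus (median 143) and 134 to 231 CPM in pregnancy (median 157). The stages overlapped, and the log2 difference of Y-P from Y-E was 0.18 ± 0.13 (edgeR adjusted p = 0.377).

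The ratio of HSPD1 to HSPE1 in CPM fell into separate ranges. It was 5.26 to 11.3 in 12 libraries and 16.5 to 22.2 in the other 6. The libraries with a high ratio were replicate 6 at all 3 stages (21.4 in anestrus, 21.5 in estrus, 18.4 in pregnancy) and replicates 1, 4 and 5 of Y-P. These were the 6 libraries with the least HSPE1, from 7.10 to 12.0 CPM, and the next had 12.5 CPM, whereas HSPD1 in them ran from 152 to 231 CPM. HSPE1 is the divisor and ranged 4.46 times over the libraries, against 1.89 times for HSPD1. Low HSPE1 and a high ratio are therefore not separate observations.

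**Figure D3:**
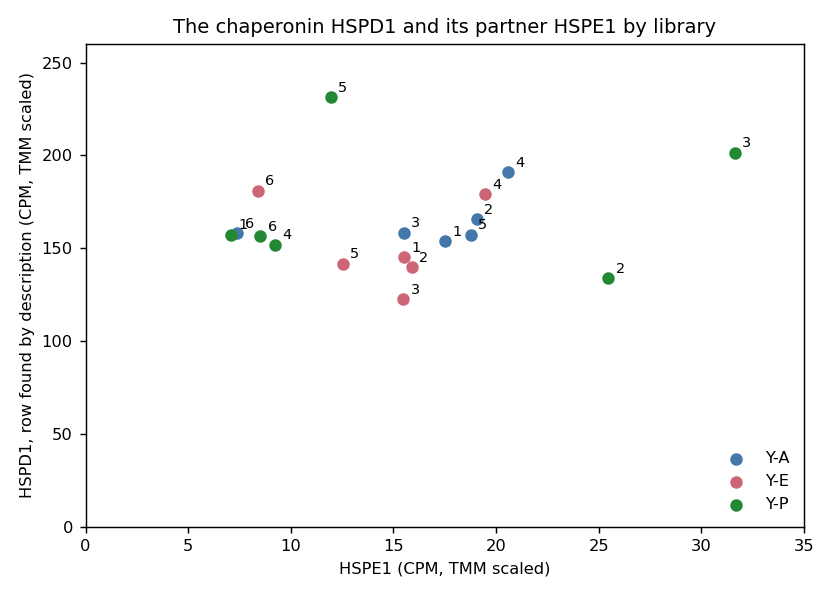
HSPD1 against HSPE1 in each of the 18 libraries, in CPM (TMM scaled); colours mark the stage and the numbers the replicate. Replicate 6 of each stage and replicates 1, 4 and 5 of Y-P lie at the left, with 7.10 to 12.0 CPM of HSPE1, and replicates 2 and 3 of Y-P at the right.

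The tested genes whose log2 CPM was most like that of HSPE1 over 18 libraries were CPEB1, a factor that binds messenger RNA (Pearson's r = 0.98), the unnamed ENSBGRG00000019233 (r = 0.98) and RPL23, a protein of the large ribosomal subunit (r = 0.97). Of the 50 genes most like HSPE1, 8 had the name of a ribosomal protein gene, as had 26 of all tested genes. Genes listed only by an identifier were not counted. The share of counts from these 26 genes, chosen after the likeness was seen, was 0.892% in Y-A replicate 6 and 0.888% in Y-E replicate 6, the lowest of all libraries. It was highest in Y-P replicates 2 and 3, at 2.97% and 3.12%, the libraries with the most HSPE1. The parallel was not complete: Y-P replicate 5 had the next highest share, 2.05%, with only 12.0 CPM of HSPE1, and Y-P replicate 1, the lowest in HSPE1, had 1.13%. Both values come from the same libraries, and the part of depth and base composition in the likeness was not tested.

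HSP90AA1, the gene found by description as ENSBGRG00000014769 (chromosome 17, 72501227 to 72507729, minus strand), had 839 to 1526 CPM in anestrus (median 1024), 910 to 1364 CPM in estrus (median 1168) and 755 to 1601 CPM in pregnancy (median 1101). The stages overlapped throughout. Its log2 difference was 0.13 ± 0.17 for Y-E vs. Y-A, 0.07 ± 0.17 for Y-P vs. Y-A and -0.06 ± 0.17 for Y-P vs. Y-E, with adjusted p from 0.842 to 0.999 by edgeR. For DNAJB1, the J-domain partner of stress HSP70, an unnamed gene (ENSBGRG00000000944, chromosome 8, 13232653 to 13240002, minus strand) carries only a matching KEGG orthology label. That label type was also found on unrelated genes of this table, so the gene was not counted. Its log2 difference was -0.28 ± 0.11 both for Y-P vs. Y-A and for Y-P vs. Y-E, with adjusted p of 0.145 and 0.104 by edgeR.

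Some members, and HSP90AA1 beside them, were highest or lowest in the same replicate number at different stages. The members HSPA8 and HSF1, and HSPD1 beside them, had no such repeat. Replicate 6 was the highest of 6 libraries at all 3 stages for HSPH1 and for HSPA5, and replicate 3 was the lowest at all 3 for HSPA5. HSP90AA1 was highest in replicate 5 at all 3 stages, and BAG3 lowest in replicate 4. HSPE1 was lowest in replicate 6 at 2 of 3 stages and highest in replicate 4 at 2 of 3. In replicate 6 the summed level of monocyte markers was also the highest of each stage (1587, 1891 and 1354 CPM for anestrus, estrus and pregnancy), as was the hemoglobin share. Reticulocyte markers were likewise the highest of each stage in replicate 6 (11136, 4722 and 129 CPM) and B cell markers the lowest (660, 554 and 756 CPM), and the part of these markers in the ranks was not tested. These ranks are a description of the same libraries, without a test.

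Within a stage, libraries with more HSPH1 tended to have more HSPA5 and less HSF1, and the first of these relations nearly vanished once differences between replicate numbers were removed. Over 36 pairs of 9 genes, correlated as deviations of log2 CPM from the stage mean in 18 libraries of 6 cows, 22 coefficients were positive with a median Pearson's r of 0.157. By two-sided permutation within stages with Benjamini-Hochberg adjustment, 8 pairs passed 0.05 by Pearson's r and 5 of these also by Spearman's rho. HSPH1 and HSF1 gave r = -0.75 (permutation p = 0.00055, adjusted 0.0119) and rho = -0.86 (permutation p = 0.0001, adjusted 0.0036), with r of -0.76 within anestrus, -0.87 within estrus and -0.80 within pregnancy. HSPH1 and HSPA5 gave r = 0.71 (permutation p = 0.00335, adjusted 0.0241) and rho = 0.68 (permutation p = 0.00397, adjusted 0.0357), with r of 0.99, 0.69 and 0.39 within the stages.

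HSF1 was also negatively correlated with HSPA5 (r = -0.67), HSPA13 (r = -0.62) and HSP90AA1 (r = -0.66). HSPE1 was negatively correlated with HSPA5 (r = -0.55), HSPA13 (r = -0.65) and HSPH1 (r = -0.58), pairs that passed by Pearson's r only. Between HSPE1 and HSF1 r was 0.56 (adjusted permutation p = 0.0622). Leaving out the 2 libraries farthest from the median of the first gene changed r to -0.62 for HSPH1 and HSF1 and to 0.76 for HSPA5 and HSPH1. The neighbours HSPD1 and HSPE1 gave r = 0.08 and rho = 0.14, with permutation p of 0.827 and 0.630. These calls were lost under both of the following settings. Without Y-E replicate 6, 0 of 36 pairs passed and HSPH1 with HSF1 had r = -0.72 (adjusted permutation p = 0.109). After the replicate number was also removed, 0 of 36 passed and the same pair had r = -0.56 (adjusted permutation p = 0.316). HSPH1 with HSPA5 then had r = 0.091 (adjusted permutation p = 0.952) and HSPA5 with HSF1 r = -0.23 (adjusted permutation p = 0.775). Under the same setting HSPE1 had r = 0.043 with HSPA5, -0.37 with HSPA13 and -0.11 with HSPH1. The coefficients of HSF1 with HSPA13 (r = -0.62) and with HSP90AA1 (r = -0.73) did not weaken, although neither pair passed. Because the libraries come from 6 cows, the permutation p-values treat them as more independent than they are. The part of depth and base composition in the correlations was not tested.

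**Figure D4:**
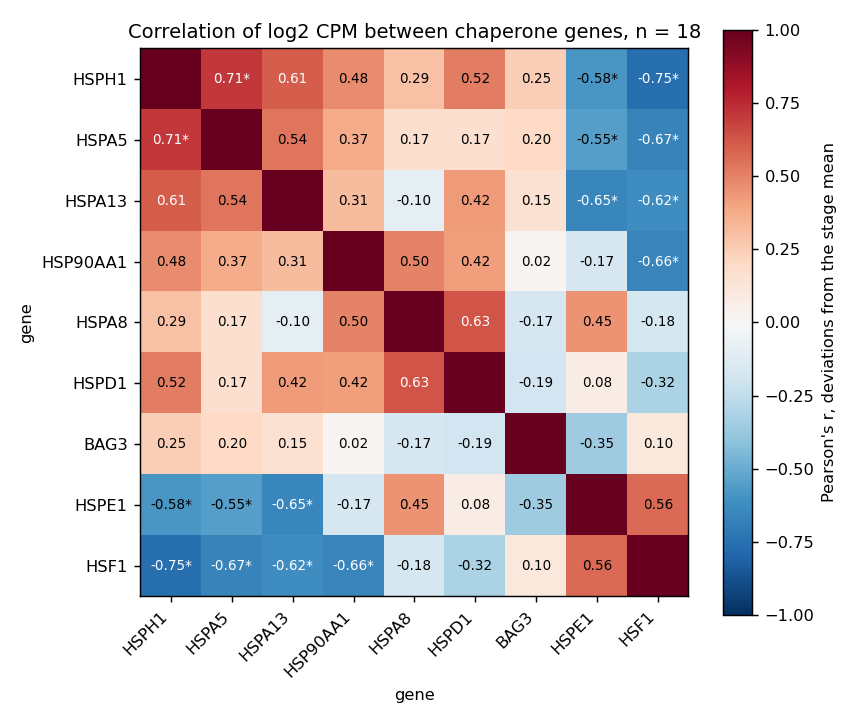
Pearson's r between the 7 members, HSPD1 and HSP90AA1, for log2 CPM as deviations from the stage mean over 18 libraries; an asterisk marks an adjusted permutation p under 0.05. HSF1 has its most negative coefficients with HSPH1 (-0.75) and HSPA5 (-0.67), and HSPD1 with HSPE1 is near 0 (0.08).

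The wider chaperone network was described by 9 lists of 92 genes, of which 79 are in the table by name and 77 were tested. Not found by name were HSPA1A, HSPA1B, HSPA14, STIP1, PTGES3, DNAJA1, DNAJB6, DNAJC1, HSPB1, CCT8, ATF4, PDIA6 and YME1L1. The lists were searched by name only, while 7332 genes of the table carry only an identifier. The absent genes may be among those, and the counts below leave them out. Between anestrus and estrus 0 of 77 passed an adjusted p of 0.05 by edgeR, DESeq2 or limma, against 0.0207% of all genes by edgeR. At an unadjusted p under 0.05, 4 of 77 passed by edgeR, against 6.2% of all genes. The smallest unadjusted p, neither passing, belonged to the J-domain genes DNAJB2 (log2 difference -0.38 ± 0.16, edgeR adjusted p = 0.676) and DNAJC7 (log2 difference -0.26 ± 0.11, edgeR adjusted p = 0.720). The list medians lay between -0.15 and 0.01 except for 4 small heat shock proteins, whose median was 0.55 with 0 of 4 called.

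Between anestrus and pregnancy 3 of 77 passed, 1 higher and 2 lower in Y-P, against 2.22% and 3.61% of all genes. CRYAB, a small heat shock protein best known from the lens and muscle, fell from 14.8 ± 7.18 CPM (SD, n = 6) in Y-A to 6.37 ± 2.46 in Y-P, a log2 difference of -1.22 ± 0.28 (edgeR adjusted p = 0.0183). HSPA6, a strictly inducible HSP70, fell from 13.0 ± 10.1 to 4.40 ± 2.03 CPM, a log2 difference of -1.57 ± 0.45 (edgeR adjusted p = 0.0460, and 0.0508 without Y-E replicate 6). HSPA6 is close in sequence to other HSP70 genes, so its counts are uncertain where reads could be shared. CLPB, a mitochondrial protein disaggregase, rose from 9.37 ± 1.21 to 12.9 ± 1.71 CPM, a log2 difference of 0.46 ± 0.12 (edgeR adjusted p = 0.0364). Without Y-E replicate 6 the count was 4, as HSPA6 was lost while CCT2 and DNAJC2, both higher in Y-P, passed with edgeR adjusted p of 0.0247 and 0.0465.

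Between estrus and pregnancy 14 of 77 passed, 11 higher and 3 lower in Y-P, against 5.77% and 8.68% of all genes. The cytosolic chaperonin, the ring that folds actin and tubulin, had the most calls. TCP1, CCT2, CCT5, CCT6A and CCT7 rose, 5 of the 7 subunits tested, and 0 of 7 fell. CCT2 rose from 86.6 ± 19.1 CPM in Y-E to 132 ± 20.6 in Y-P, a log2 difference of 0.60 ± 0.13 (edgeR adjusted p = 0.00482). CCT5 rose by 0.56 ± 0.15 and TCP1 by 0.39 ± 0.11 on the log2 scale (edgeR adjusted p = 0.0204 and 0.0199). The median log2 difference of the 7 subunits was 0.39, beside 0.04 over all tested genes. The count of 5 depended on single libraries: it was 2 without Y-E replicate 3 or Y-P replicate 3, and 3 without Y-E replicate 1, 2 or 5 or Y-P replicate 5. Without Y-E replicate 6 it was 4, CCT7 being lost at an edgeR adjusted p of 0.0510.

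HSPA9, the mitochondrial HSP70 also called mortalin, rose from 116 ± 14.7 to 156 ± 25.0 CPM between Y-E and Y-P, a log2 difference of 0.42 ± 0.11 (edgeR adjusted p = 0.0181). TRAP1, the mitochondrial HSP90, AFG3L2, a mitochondrial protease, and the J-domain genes DNAJA2, DNAJC2 and DNAJC7 were the others that rose, by 0.31 to 0.49 on the log2 scale. Without Y-E replicate 6, TRAP1, DNAJA2 and DNAJC7 no longer passed, with edgeR adjusted p of 0.0723, 0.0665 and 0.0834, and the count of called genes was 10 in place of 14, DNAJC10, a J-domain protein of the endoplasmic reticulum, being added (edgeR adjusted p = 0.0448). CRYAB fell from 19.4 ± 5.05 to 6.37 ± 2.46 CPM, a log2 difference of -1.61 ± 0.28 (edgeR adjusted p = 0.00142). HSPA12B, a distant HSP70 relative known from endothelium, fell by 0.61 ± 0.18 on the log2 scale, from 39.7 ± 7.42 to 26.1 ± 6.48 CPM (edgeR adjusted p = 0.0262). ERN1, the IRE1 sensor of endoplasmic reticulum stress, fell by 0.81 ± 0.25 on the log2 scale, from 54.6 ± 19.4 to 31.1 ± 8.18 CPM (edgeR adjusted p = 0.0327, and 0.0563 without Y-E replicate 6).

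**Figure D5:**
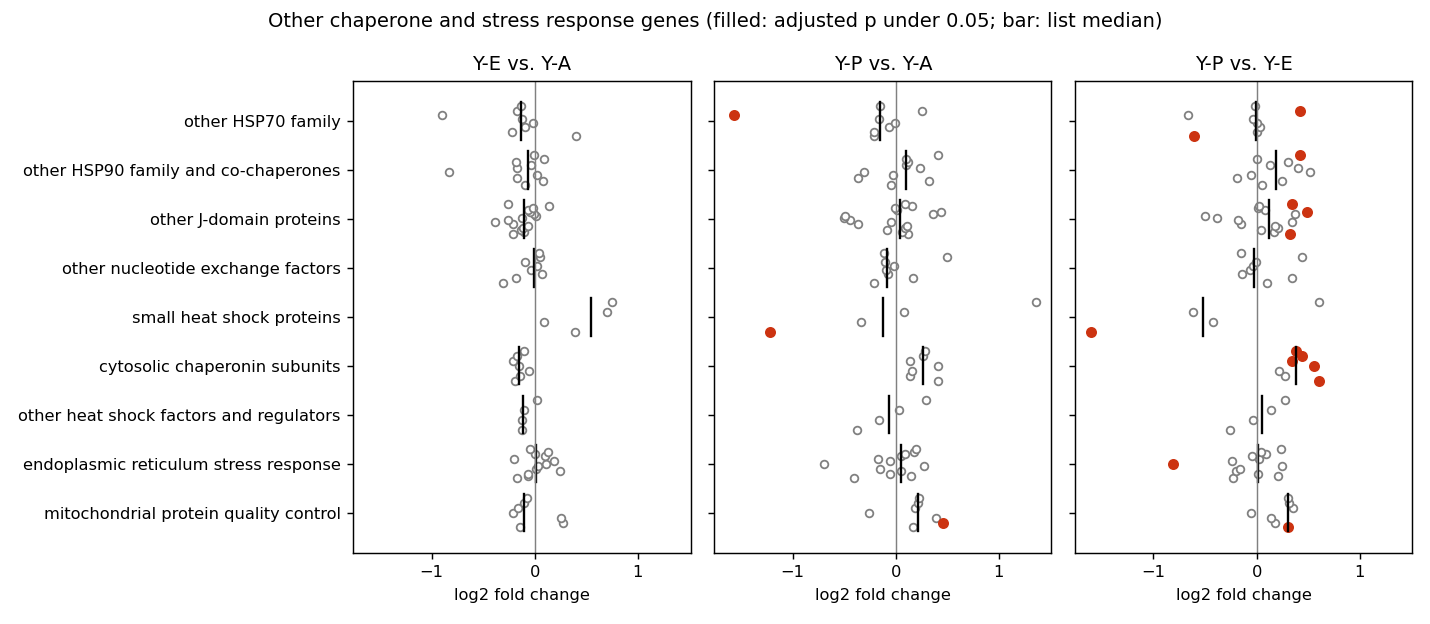
Log2 fold changes of 77 other chaperone and stress response genes in the 3 comparisons, by list; each circle is a gene, filled circles passed an adjusted p of 0.05 in edgeR's test, and the bar is the list median. Filled circles are absent in Y-E vs. Y-A, number 3 in Y-P vs. Y-A and 14 in Y-P vs. Y-E, of which 5 are chaperonin subunits.

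Markers of blood cell types moved with the same comparisons. In Y-P vs. Y-E, 4 of 8 T cell markers were higher and 5 of 7 neutrophil markers lower at an adjusted p of 0.05 by edgeR. The shares over all genes were 5.77% higher and 8.68% lower. In Y-P vs. Y-A, 3 of 8 T cell markers were higher and 1 of 7 neutrophil markers lower, against 2.22% and 3.61% of all genes. The summed T cell markers were 1346 to 2249 CPM in Y-P against 1152 to 1469 in Y-E. The summed neutrophil markers were 2962 to 4138 CPM in Y-P against 5056 to 9500 in Y-E. Reticulocyte markers were lower in Y-P for 6 of 6 against Y-A and 5 of 6 against Y-E, and platelet markers for 3 of 6 in both. Of natural killer cell markers 1 of 6 was higher in Y-P than in Y-E, and 0 of 9 B cell and 0 of 6 monocyte markers passed in any comparison. No listed marker in the table was at 0 in every library, and GP1BA and CLEC1B, of platelets, had a mean under 1 CPM. The part of these cell types in the differences of the chaperone genes was not tested.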

How the data were processed

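Whole-blood RNA of 18 libraries was measured, and the label of a library gave its stage. Per the labels, the authors used cutadapt 1.9, HISAT2 2.2.1 and StringTie 2.1.6. The authors deposited FPKM (fragments scaled by gene length and mapped reads) and whole-number counts for 20607 genes, and how the counts were made is not given in the sources used here. Positions were taken from the deposited table, and the study names the genome only as an Ensembl release. Libraries held 30247267 to 48401076 counts.

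The deposited counts were tested with edgeR 4.0.16 under R 4.3.3, with low genes removed by filterByExpr (14508 kept), TMM scaling, and two-sided quasi-likelihood tests of stage alone over 18 libraries. The p-values were adjusted by Benjamini-Hochberg within each comparison. CPM were computed after TMM scaling, and log2 CPM for correlations with a prior count of 2. Alternatives used DESeq2 1.42.0, limma 3.58.1 on log2(FPKM + 1) and log2(FPKM + 0.1), other scalings and filters, fewer libraries, and the replicate number as a block. The fits were tested on simulated data. Correlations used Python 3.11.15, numpy 2.4.6 and 100000 permutations within stages.

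The text names all members, the genes of the pathway lists with the smallest adjusted p (up to 4 higher and 4 lower per comparison, or the 2 of smallest p where fewer than 2 passed), and the 3 genes most like the most variable member. Other called pathway genes are named to complete a count, and this choice was made after their values were seen. The members and the lists were chosen with earlier results of these data known. The study states that the same cows were followed, and replicate numbers were taken to mark them, although the labels do not say so. Same-numbered libraries correlated in their deviations from the stage means by 0.110 to 0.515 for Y-E and Y-A, by -0.0492 to 0.369 for Y-P and Y-A and by -0.0544 to 0.400 for Y-P and Y-E, so not every pair deviates together. The p-values cover the spread between these libraries.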

Additional observations from a re-analysis of the deposited data

Results flagged for a closer look

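Each of 27 groups of 6 libraries (9 genes at 3 stages) was searched for a library far from the others by Dixon's test, and 3 met it, where chance gives about 1 in 20. HSPH1 in Y-E replicate 6 had 94.0 CPM, and the nearest library of the stage 63.5 CPM. HSP90AA1 in Y-A replicate 5 had 1526 CPM, and the nearest library 1062 CPM. HSPD1 in Y-A replicate 4 had 191 CPM, and the nearest library 166 CPM.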

How the results depend on the processing

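Under all alternatives 0 members passed in Y-E vs. Y-A, and of 756 log2 fold changes of members, HSPD1 and HSP90AA1, 707 kept their sign and side of the threshold, 3 came to pass it and 46, none of them called, changed sign. The cause of each change was not tested. With the replicate block, 1 member passed in Y-P vs. Y-A (HSPH1), 1 in Y-P vs. Y-E (BAG3) and 1 across the 3 stages (HSPH1); without Y-E replicate 6 and with the replicate block, 1 passed in Y-P vs. Y-A and 1 across the 3 stages, both HSPH1. With 1 library left out in turn, 0 members passed in any comparison or across the stages. Each member had at least 208 counts in every library, and the least covered was HSPE1.

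All genes past the threshold in Y-E vs. Y-A were 3, but 64 with DESeq2, 14 with the replicate block, 54 without Y-E replicate 6 and with the block, and 3 to 23 with 1 library left out. In Y-P vs. Y-A they were 846, but 1333 with library size only, 1581 with DESeq2, 2116 and 1928 with limma on log2(FPKM + 1) and log2(FPKM + 0.1), 1282 with the replicate block, 482 with only the 2 stages compared and 386 (without Y-P replicate 2) to 1077 (without Y-P replicate 1) with 1 library left out. In Y-P vs. Y-E the 2096 became 1372 (without Y-E replicate 5) to 2305 (without Y-E replicate 4).

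Pathway genes called in Y-P vs. Y-A were 3, but 10 with library size only, 7 with DESeq2, 16 with each limma setting, 1 with no filter on low counts, 5 with the replicate block, 1 with only the 2 stages compared and 1 to 4 with 1 library left out. In Y-P vs. Y-E they were 14, but 26 with each limma setting, 9 with only the 2 stages compared and 5 (without Y-E replicate 3) to 17 (without Y-E replicate 4). The chaperonin count of 5 became 2 to 5 with 1 library left out. CRYAB in both comparisons, CCT2 and HSPA9 passed in 28 of 28 alternatives, CCT5 and TCP1 in 27, DNAJC2 in 24, AFG3L2 in 22, HSPA12B in 21, CCT7 and ERN1 in 20, TRAP1 in 17, CCT6A and CLPB in 16, DNAJA2 in 13, DNAJC7 in 12 and HSPA6 in 9, all without a change of sign. Of correlated pairs, 8 passed, but 1 with library size only, 14 with log2(FPKM + 1), 0 with the replicate block and 0 without Y-E replicate 6.

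The log2 differences that changed sign were not called in any setting. HSF1 in Y-E vs. Y-A became 0.0082 with relative log expression size factors, 0.015 with library size only, 0.0080 with DESeq2, 0.0084 with only the 2 stages compared, 0.038 and 0.041 with limma, 0.0014 with no filter, 0.018 with the replicate block and 0.066 without Y-E replicate 6 and with the block. In Y-P vs. Y-A, HSPA5 became -0.0042 without hemoglobin genes and -0.019 with only the 2 stages compared, HSPA8 0.065 with library size only and 0.099 with either limma setting, and HSPE1 0.060 with library size only. In Y-P vs. Y-E, HSPH1 (-0.19 in the report) became 0.019 and 0.021 with limma, HSP90AA1 0.078 with library size only and 0.097 with either limma setting, and HSPE1 -0.010 with the replicate block. With 1 library left out, the values ran in Y-E vs. Y-A from -0.11 to 0.087 for HSF1. In Y-P vs. Y-A they ran from -0.047 to 0.037 for HSPA5, from -0.064 to 0.20 for HSP90AA1, from -0.033 to 0.13 for HSPD1 and from -0.40 to 0.077 for HSPE1. In Y-P vs. Y-E they ran from -0.20 to 0.026 for HSP90AA1 and from -0.22 to 0.26 for HSPE1.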
